A study of Mus musculus with 12 samples.

Results

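The 9 genes described here encode angiogenic and paracrine growth factors, together with the hypoxia factor that controls several such genes. They are Vegfa, Vegfb, Vegfc, Pgf, Angpt1, Hgf, Fgf2, Fgf23 and Hif1a, taken by gene name from the 22915 genes of the deposited table. The study cultured primary cardiomyocytes of adult male C57/Bl6 mice, aged 12 weeks, in normoxia and gave them PBS, mLIF, mOSM or hlOSM for 24 h. Each cytokine was given at 25 ng/mL by the sample labels. A lower concentration stands in the paper. Murine LIF (mLIF) signals through the receptor LIFR and murine OSM (mOSM) through OSMR, while hlOSM, murine OSM with the AB loop of the human protein, signals through both. Each condition had 3 RNA-seq libraries, 12 in all, and neither the labels nor the paper say whether a replicate number stands for a shared cell preparation.

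Vascular endothelial growth factors bind tyrosine kinase receptors on endothelial cells and drive vessel growth, and angiopoietin 1 acts on the endothelial receptor TEK to keep vessels mature and quiescent. Hepatocyte growth factor and fibroblast growth factors act on epithelial, endothelial, muscle and mesenchymal cells through MET and the FGF receptors, and FGF23 is mainly known as a hormone of bone that lowers blood phosphate and has been linked to cardiac hypertrophy. HIF1A is controlled by oxygen mostly at the level of protein stability, so that its mRNA does not report the activity of the protein.

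Values are the authors' normalized counts per library, which added up to between 2745748 and 2911891. These totals are not numbers of reads, and the paper states an average number of reads but none for each library, so that no depth can be given for single values. Differences were tested with limma over the 13184 genes that reached 10 normalized counts in 3 or more libraries. A gene was called when its two-sided p, adjusted by Benjamini and Hochberg over these genes, was under 0.05. With 3 libraries against 3, an exact permutation test of a single gene cannot go below 0.1. All 9 genes passed the filter, but Fgf23 did so only through cytokine libraries, so that it had to differ to be tested. In PBS, replicate 3 stood further from the other libraries of its condition (root mean square log2 difference 0.182) than replicates 1 and 2 (0.143 and 0.136). The same held for replicate 3 of mOSM (0.181 against 0.132 and 0.157) and of hlOSM (0.181 against 0.139 and 0.138). In mLIF replicate 3 was the furthest too, by less (0.133 against 0.128 and 0.117).

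The cells carried the RNA of their label. The 9 cardiomyocyte markers, led by Ttn, summed to 50889, 50495 and 52612 normalized counts in PBS, to 45792, 43896 and 43960 after mLIF, to 36668, 35595 and 39980 after mOSM, and to 36419, 38969 and 37858 after hlOSM. Every cytokine library lay below every PBS library in this sum. By limma, mLIF lowered 7 of the 9 markers, and mOSM and hlOSM lowered all 9. The shares of all tested genes that fell were 4.44%, 15.8% and 19.8%. A fit that blocks on replicate number gave 5, 9 and 9 markers lowered. The count of markers lowered by mLIF was 4 without PBS replicate 1, 1 without PBS replicate 3, 3 without mLIF replicate 2 and 0 without mLIF replicate 3. These falls of markers accompany the results on the growth factors below, and their part in them was not tested. In bulk RNA, fewer cells of a type and less RNA per cell cannot be told apart.

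With mLIF, 2 of the 9 genes rose (Fgf2 and Fgf23) and 2 fell (Vegfa and Angpt1), where 5.47% of all tested genes rose and 4.44% fell (limma). With mOSM, Fgf2, Fgf23 and Hif1a rose, 3 of 9 against 15.4% of all tested genes, and Vegfa, Pgf and Angpt1 fell, 3 of 9 against 15.8%. The same 3 genes rose and the same 3 fell with hlOSM, where 18.2% of all tested genes rose and 19.8% fell. The F test over all conditions called the same 6 genes, against 34.2% of all tested genes. The members were chosen with earlier results of these data known, so these shares are no test of whether members changed more often. Fgf23, which passed the filter only through cytokine libraries, is among the genes called in each comparison with PBS. The 3 comparisons share the PBS libraries, so that a deviation of those libraries enters all of them. Without PBS replicate 3 the calls were the same with mOSM and hlOSM, and Angpt1 was lost with mLIF. The remaining members, Vegfb, Vegfc and Hgf, were not called in any comparison.

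**Figure D1:**
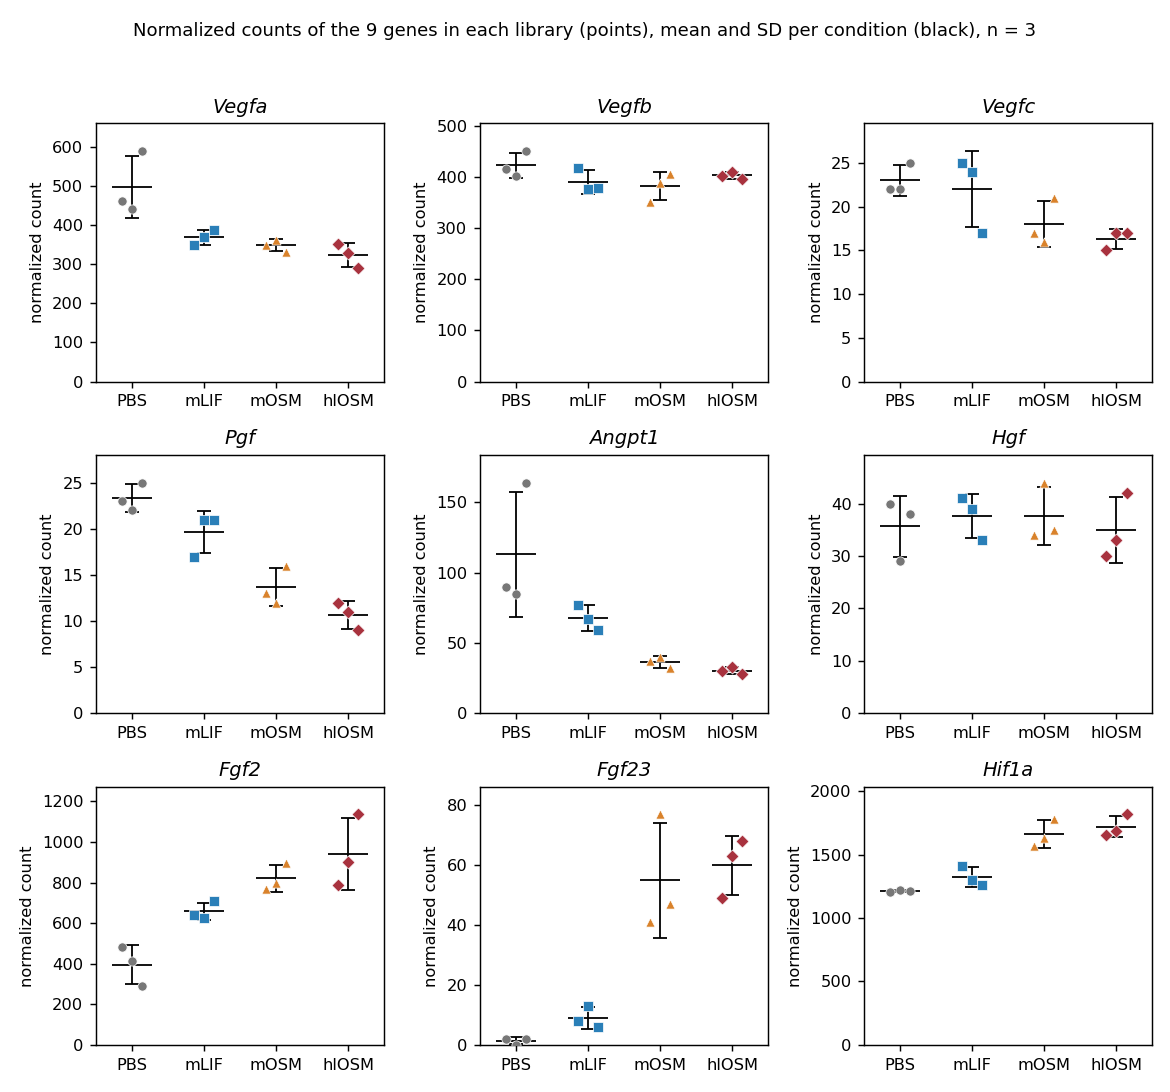
Normalized counts (vertical axis) of the 9 genes in each library by condition (horizontal axis), with the mean and the SD of 3 libraries. Fgf23 lies between 0 and 2 in PBS and between 41 and 77 with mOSM, while Angpt1 lies between 85 and 164 in PBS and between 28 and 33 with hlOSM.

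Vegfa (ENSMUSG00000023951, chr17:46016993-46032369, minus strand, mm10) encodes the main angiogenic ligand of FLT1 and KDR. It had normalized counts of 461, 442 and 589 in PBS, 348, 369 and 388 after mLIF, 350, 362 and 332 after mOSM, and 351, 328 and 291 after hlOSM. PBS replicate 3 was the highest library, and every cytokine library lay below every PBS library. Means were 497 ± 80.0 (SD, n = 3) in PBS, 368 ± 20 (SD, n = 3) with mLIF, 348 ± 15.1 (SD, n = 3) with mOSM and 323 ± 30.3 (SD, n = 3) with hlOSM. On the log2 scale Vegfa differed from PBS by −0.42 with mLIF (limma, SE 0.09, adjusted p = 0.00378), by −0.50 with mOSM (adjusted p = 0.000114) and by −0.61 with hlOSM (adjusted p = 7.93e-06). Without PBS replicate 3 these differences were −0.29, −0.38 and −0.48, and all of them were still called.

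Pgf (ENSMUSG00000004791, chr12:85166635-85177790, minus strand) encodes placental growth factor, a ligand of FLT1. It had 23, 22 and 25 normalized counts in PBS, 17, 21 and 21 after mLIF, 13, 12 and 16 after mOSM, and 12, 11 and 9 after hlOSM. The mOSM and hlOSM libraries all lay below the PBS libraries and below the mLIF libraries, at low values throughout. Pgf differed from PBS by −0.74 with mOSM (limma, SE 0.21, adjusted p = 0.0107) and by −1.07 with hlOSM (adjusted p = 0.000415) on the log2 scale. With mLIF the log2 difference was −0.24 (95% interval −0.68 to 0.20, adjusted p = 0.511). The libraries of mLIF and PBS did not overlap in Pgf, as in 30.3% of all tested genes.

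Vegfb (ENSMUSG00000024962, chr19:6982473-6987651, minus strand), another ligand of FLT1, ranged from 403 to 451 in PBS and from 352 to 417 in the cytokine libraries. Its log2 differences from PBS were −0.11, −0.15 and −0.07 with mLIF, mOSM and hlOSM (limma, adjusted p = 0.284, 0.0986 and 0.450). Leaving out single libraries moved the Vegfb difference with mOSM both ways. It was −0.19 and passed without mOSM replicate 3 (limma, adjusted p = 0.0370), −0.09 without mOSM replicate 1 (adjusted p = 0.395) and −0.10 without PBS replicate 3 (adjusted p = 0.350). Vegfc (ENSMUSG00000031520, chr8:54077606-54187096, plus strand), the lymphangiogenic ligand of FLT4, had 22, 22 and 25 normalized counts in PBS and 15, 17 and 17 after hlOSM. These libraries did not overlap, as in 47.0% of all tested genes, and the log2 difference of −0.47 (95% interval −0.89 to −0.05) did not pass over all genes (limma, adjusted p = 0.0716). The corresponding differences were −0.08 with mLIF and −0.34 with mOSM (adjusted p = 0.849 and 0.210).

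Angpt1 (ENSMUSG00000022309, chr15:42424723-42676977, minus strand) encodes the activating ligand of TEK. It had 90, 85 and 164 normalized counts in PBS, 77, 67 and 59 after mLIF, 37, 40 and 32 after mOSM, and 30, 33 and 28 after hlOSM. PBS replicate 3 was far above the other libraries, the cytokine libraries were all below PBS, and the mOSM and hlOSM libraries were all below mLIF. Means fell from 113 ± 44.2 (SD, n = 3) in PBS to 36.3 ± 4.04 (SD, n = 3) with mOSM and 30.3 ± 2.52 (SD, n = 3) with hlOSM, which is 0.341 and 0.287 times the PBS level in the fit. The log2 differences were −1.55 with mOSM (limma, SE 0.18, adjusted p = 8.71e-07) and −1.80 with hlOSM (adjusted p = 7.42e-08), and −1.25 and −1.50 without PBS replicate 3. With mLIF the difference was −0.67 (limma, adjusted p = 0.0219). It did not pass without PBS replicate 3 (−0.37, adjusted p = 0.174), without mLIF replicate 2 (−0.67, adjusted p = 0.0592) or without mLIF replicate 3 (−0.58, adjusted p = 0.117). Exons of Gm17473 on the opposite strand cover 14.2% of the exonic bases of Angpt1, and the strand setting of the counting is not stated.

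Markers of pericytes and smooth muscle cells, which are among the sources of Angpt1 in the heart, were lower with the cytokines too, as were the cardiomyocyte markers. The 7 mural markers, led by Cspg4, summed to 1042, 1082 and 1283 normalized counts in PBS, 1000, 959 and 1011 after mLIF, 767, 712 and 751 after mOSM, and 669, 682 and 647 after hlOSM. Every cytokine library lay below PBS in this sum, as in that of the cardiomyocyte markers, and the means fell in the order PBS, mLIF, mOSM and hlOSM. None of the 7 markers passed with mLIF (limma), where Angpt1 and 7 of the 9 cardiomyocyte markers were called lower. With mOSM 6 of the mural markers fell and with hlOSM 7 fell. The shares of all tested genes that fell were 4.44%, 15.8% and 19.8%. The 9 fibroblast markers, led by Col3a1, summed to 2766, 2741 and 2994 in PBS, 2624, 2672 and 2583 after mLIF, 2736, 2761 and 3181 after mOSM, and 2773, 2580 and 2805 after hlOSM. The mLIF libraries lay below all PBS and mOSM libraries, and the other pairs of conditions overlapped. By limma, mLIF lowered 1 of these markers (0 with the block), mOSM raised 2 and lowered 4, and hlOSM raised 3 (2 with the block) and lowered 6. The count lowered by mLIF was 2 without PBS replicate 1, and 0 without PBS replicate 3, hlOSM replicate 2 or any mLIF library. The part of any of these cell types, cardiomyocytes included, in the result on Angpt1 was not tested.

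Hgf (ENSMUSG00000028864, chr5:16553495-16620152, plus strand) encodes the ligand of MET. It had 40, 29 and 38 normalized counts in PBS, 41, 39 and 33 after mLIF, 34, 44 and 35 after mOSM, and 30, 33 and 42 after hlOSM. The libraries of all conditions overlapped. The log2 difference from PBS was 0.08 with mLIF (95% interval −0.27 to 0.44), 0.08 with mOSM (−0.27 to 0.43) and −0.03 with hlOSM (−0.38 to 0.33), and none passed (limma, adjusted p = 0.803, 0.760 and 0.916).

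Fgf2 (ENSMUSG00000037225, chr3:37348346-37410108, plus strand) encodes a heparin-binding mitogen that leaves cells without a signal peptide. It had 483, 412 and 292 normalized counts in PBS, 641, 626 and 707 after mLIF, 770, 798 and 897 after mOSM, and 787, 901 and 1136 after hlOSM. Every cytokine library lay above every PBS library, and the mOSM and hlOSM libraries lay above those of mLIF. Replicate 3 was the lowest PBS library and the highest library of each cytokine. Means were 396 ± 96.5 (SD, n = 3) in PBS, 658 ± 43.1 (SD, n = 3) with mLIF, 822 ± 66.7 (SD, n = 3) with mOSM and 941 ± 178 (SD, n = 3) with hlOSM. Fgf2 rose 1.69-fold with mLIF (limma, log2 difference 0.76, SE 0.13, adjusted p = 0.000659), 2.11-fold with mOSM (1.08, adjusted p = 8.95e-07) and 2.40-fold with hlOSM (1.26, adjusted p = 7.06e-08). Without PBS replicate 3 the log2 differences were 0.56, 0.88 and 1.06, and all were called.

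Nudt6, which is transcribed from the other strand of the Fgf2 locus, shares 9.44% of the exonic bases of Fgf2. It was not called in any comparison with PBS (limma), with log2 differences of 0.28, −0.05 and −0.11 with mLIF, mOSM and hlOSM. The part of the shared bases in the values of Fgf2 was not tested.

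Fgf23 (ENSMUSG00000000182, chr6:127072902-127081408, plus strand) was nearly absent in PBS, with 2, 0 and 2 normalized counts. It had 8, 13 and 6 after mLIF, 41, 77 and 47 after mOSM, and 49, 63 and 68 after hlOSM. The PBS, mLIF and mOSM libraries did not overlap, whereas those of mOSM and hlOSM did. The means were 1.33 ± 1.15 (SD, n = 3) in PBS, 9.0 ± 3.61 (SD, n = 3) with mLIF, 55.0 ± 19.3 (SD, n = 3) with mOSM and 60.0 ± 9.85 (SD, n = 3) with hlOSM. Fgf23 rose by a log2 difference of 2.20 with mLIF (limma, SE 0.35, adjusted p = 0.000468), 4.70 with mOSM (adjusted p = 1.27e-09) and 4.86 with hlOSM (adjusted p = 4.34e-10). Since PBS lies near 0, the size of these differences depends on the pseudocount. Over the alternatives that kept all libraries it ranged from 1.13 to 3.51 with mLIF, from 3.21 to 6.12 with mOSM and from 3.37 to 6.29 with hlOSM, and the call was the same in each.

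Hif1a (ENSMUSG00000021109, chr12:73901375-73947530, plus strand) encodes the oxygen-regulated subunit of the factor that induces Vegfa in hypoxia. It had 1203, 1219 and 1215 normalized counts in PBS, 1411, 1296 and 1259 after mLIF, 1570, 1632 and 1780 after mOSM, and 1655, 1688 and 1816 after hlOSM. PBS libraries were the lowest, mLIF libraries lay between, and mOSM and hlOSM libraries were the highest and overlapped each other. Hif1a rose 1.37-fold with mOSM (limma, log2 difference 0.45, SE 0.06, adjusted p = 1.75e-06) and 1.42-fold with hlOSM (0.50, adjusted p = 2.99e-07). With mLIF the log2 difference of 0.12 (95% interval 0.01 to 0.24) did not pass (adjusted p = 0.170), and it was 0.08 without mLIF replicate 1 (adjusted p = 0.509). With quantile normalization it was 0.19 and passed (adjusted p = 0.00560). Over all alternatives, Hif1a was higher and Vegfa lower with mOSM and hlOSM than in PBS.

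**Figure D2:**
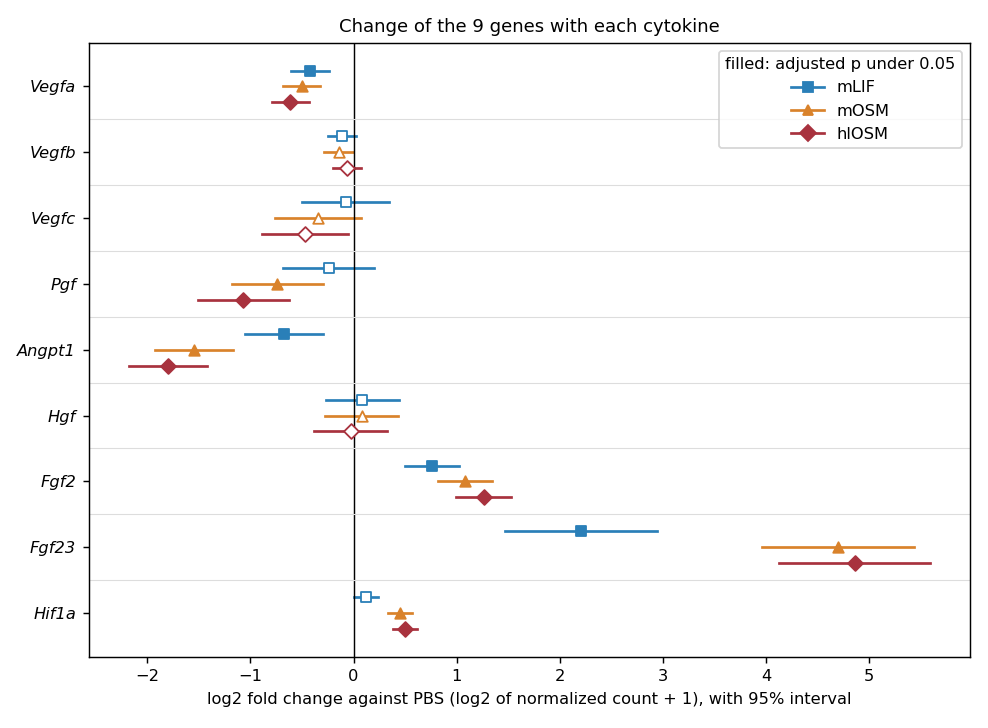
Log2 differences from PBS (horizontal axis) of the 9 genes with mLIF, mOSM and hlOSM, with 95% intervals from limma; filled points have an adjusted p under 0.05. Fgf23 lies furthest to the right, at 4.86 with hlOSM, and Angpt1 furthest to the left, at −1.80.

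The comparison of mOSM with mLIF sets the receptor OSMR against LIFR. Fgf23 and Hif1a were higher with mOSM, 2 of 9 genes where 6.05% of all tested genes were higher, and Angpt1 was lower, 1 of 9 against 5.76% (limma). The log2 differences were 2.49 for Fgf23 (SE 0.35, adjusted p = 3.06e-05), 0.33 for Hif1a (SE 0.06, adjusted p = 0.000277) and −0.88 for Angpt1 (SE 0.18, adjusted p = 0.00208). Fgf2 and Pgf had log2 differences of 0.32 and −0.50 that did not pass (limma, adjusted p = 0.117 and 0.147). Libraries of these conditions did not overlap in either gene, as in 27.1% of all tested genes. Fgf2 passed without PBS replicate 3 (adjusted p = 0.0244) and when only these 2 conditions were fitted (adjusted p = 0.00119). The difference for Vegfa was −0.08 (95% interval −0.26 to 0.10).

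The comparison of hlOSM with mLIF asks what OSMR adds when LIFR is engaged. Whether hlOSM and mLIF engage LIFR equally was not tested. Fgf2, Fgf23 and Hif1a were higher with hlOSM, 3 of 9 genes against 7.42% of all tested genes, and Pgf and Angpt1 were lower, 2 of 9 against 9.22% (limma). Fgf23 differed by 2.66 (adjusted p = 1.07e-05), Hif1a by 0.38 (adjusted p = 4.02e-05) and Angpt1 by −1.13 (adjusted p = 0.000119) on the log2 scale. Pgf differed by −0.83 (limma, adjusted p = 0.00905) and Fgf2 by 0.50 (adjusted p = 0.00837). Without hlOSM replicate 3, the highest Fgf2 library, the Fgf2 difference was 0.36 and did not pass (adjusted p = 0.0697).

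The comparison of hlOSM with mOSM asks what LIFR adds when OSMR is engaged. Whether hlOSM and mOSM engage OSMR equally was not tested. None of the 9 genes was called by limma, where 0.106% of all tested genes were called. At an unadjusted p under 0.05 there were 0 of the 9 genes and 7.49% of all tested genes (limma). This does not show that the values were equal. The 95% intervals of the log2 difference ran from −0.29 to 0.07 for Vegfa, from −0.77 to 0.11 for Pgf and from −0.63 to 0.13 for Angpt1. They ran from −0.08 to 0.45 for Fgf2, from −0.57 to 0.90 for Fgf23 and from −0.07 to 0.17 for Hif1a.

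The interaction compares the hlOSM to mOSM difference with the mLIF to PBS difference. It called 0 of the 9 genes (limma), where 0.167% of all tested genes were called. At an unadjusted p under 0.05 there were 3 of the 9 genes, against 11.5% of all tested genes. These were Fgf23 with −2.04 on the log2 scale (SE 0.50, adjusted p = 0.104), Fgf2 with −0.58 (SE 0.18, adjusted p = 0.199) and Vegfa with 0.31 (SE 0.12, adjusted p = 0.327). Without PBS replicate 1 both Fgf2 (−0.74, adjusted p = 0.0327) and Fgf23 (−2.31, adjusted p = 0.0283) passed, and without hlOSM replicate 3 Fgf2 passed (−0.72, adjusted p = 0.0454). Leaving out other libraries moved these values either way. Without PBS replicate 3 the interaction was −0.38 for Fgf2 (adjusted p = 0.393), 0.18 for Vegfa (adjusted p = 0.619) and −2.31 for Fgf23, which did not pass there (adjusted p = 0.0588). Without PBS replicate 2 it was −1.51 for Fgf23 (adjusted p = 0.127). Over the alternatives that kept all libraries, the interaction of Fgf23 ranged from −3.34 to −0.98, since it too rests on values near 0 in PBS. For these 3 genes the differences that make up the interaction were 2.20 and 0.16, 0.76 and 0.18, and −0.42 and −0.11.

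Levels of the 9 genes were compared with each other as normalized counts per kilobase of exon. In PBS Vegfb had the highest mean level (264 ± 15.6, SD, n = 3), followed by Hif1a (206 ± 1.41), Vegfa (116 ± 18.7), Fgf2 (58.3 ± 14.2) and Angpt1 (21.7 ± 8.50). Below these came Vegfc (9.39 ± 0.707), Pgf (8.04 ± 0.526), Hgf (4.96 ± 0.815) and Fgf23 (0.735 ± 0.637), and no neighbours in this order overlapped. With mLIF, Vegfb (243) and Hif1a (224) overlapped at the top, and Fgf2 (97.0) stood above Vegfa (86.0) in level per kilobase. Angpt1 (13.0) followed, then Vegfc (8.98) and Pgf (6.77), which overlapped, and Hgf (5.24) and Fgf23 (4.96), which overlapped too. With mOSM, the level per kilobase was highest for Hif1a (282), then Vegfb (238), Fgf2 (121), Vegfa (81.2) and Fgf23 (30.3), with no overlap between neighbours. Vegfc (7.35) and Angpt1 (6.98) overlapped below them, as did Hgf (5.24) and Pgf (4.71). With hlOSM the order was Hif1a (292), Vegfb (251), Fgf2 (139), Vegfa (75.5) and Fgf23 (33.1), then Vegfc (6.67), Angpt1 (5.83) and Hgf (4.87) with overlapping neighbours, and Pgf (3.67) at the end. From PBS to mOSM, Fgf23 moved in level per kilobase from the lowest of the 9 genes to a place above Angpt1, Vegfc, Hgf and Pgf.

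Receptors and co-receptors of these ligands were listed separately, and 12 of the 15 could be tested. By limma, mLIF raised 0 receptors and lowered 1 (Nrp1), mOSM raised 5 and lowered 4, and hlOSM raised 7 and lowered 4. Of all tested genes, mLIF raised 5.47% and lowered 4.44%, mOSM raised 15.4% and lowered 15.8%, and hlOSM raised 18.2% and lowered 19.8%. When replicate number was a block, the numbers of receptors became 0 and 1, 5 and 3, and 4 and 2. With mLIF, the number lowered was 0 without PBS replicate 3 and 2 without hlOSM replicate 3, and with mOSM it was 2 without PBS replicate 3. With hlOSM, the number raised was 4 without PBS replicate 1 or hlOSM replicate 1 or 3, and the number lowered was 2 without PBS replicate 2 or hlOSM replicate 2. The median log2 difference over the 12 receptors was 0.02, 0.24 and 0.28, against a median over all tested genes within 0.0067 of 0.

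Flt1, which encodes the receptor of VEGFA, VEGFB and PGF, had 221, 202 and 186 normalized counts in PBS, 200, 209 and 222 after mLIF, 287, 304 and 389 after mOSM, and 331, 324 and 294 after hlOSM. The mOSM and hlOSM libraries lay above all PBS and mLIF libraries, and PBS and mLIF overlapped. Flt1 rose by a log2 difference of 0.67 with mOSM (limma, adjusted p = 6.43e-06) and 0.64 with hlOSM (adjusted p = 9.61e-06). Kdr, the main signaling receptor of VEGFA, had 370, 395 and 382 in PBS, 374, 376 and 398 after mLIF, 469, 461 and 485 after mOSM, and 464, 434 and 458 after hlOSM. Its libraries lay in the same pattern, with rises of 0.30 and 0.24 on the log2 scale with mOSM and hlOSM (limma, adjusted p = 0.000264 and 0.00186). Flt4, the receptor of VEGFC, rose by 0.51 with mOSM (limma, adjusted p = 0.00356). Its difference of 0.37 with hlOSM (adjusted p = 0.0254) did not pass with the block (adjusted p = 0.0652), without PBS replicate 1 or 2 (adjusted p = 0.122 and 0.0624), or without hlOSM replicate 1 or 3 (adjusted p = 0.119 and 0.0575).

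The co-receptor Nrp1 differed from PBS by −0.27 (mLIF), −0.26 (mOSM) and −0.30 (hlOSM) on the log2 scale (limma, adjusted p = 0.0149, 0.00482 and 0.00123). Without PBS replicate 3 the differences with mLIF and mOSM were −0.17 and −0.17 and did not pass (adjusted p = 0.119 and 0.0527), and without mLIF replicate 3 that with mLIF was −0.23 (adjusted p = 0.0934). Nrp2 fell by 0.51 with mOSM and 0.41 with hlOSM (limma, adjusted p = 0.000118 and 0.000896). Tek, the receptor of ANGPT1, had log2 differences of 0.20, 0.27 and 0.31. Only that with hlOSM passed (limma, adjusted p = 0.0420), and it did not with the block (adjusted p = 0.0647), without PBS replicate 3 (0.20, adjusted p = 0.228) or without hlOSM replicate 1, 2 or 3 (adjusted p = 0.0843, 0.102 and 0.0619). The Tek difference with mOSM passed without mOSM replicate 1 (0.36, limma, adjusted p = 0.0435). Met, the receptor of HGF, was not called, with 0.19, 0.07 and 0.07 (limma, adjusted p = 0.452, 0.770 and 0.734).

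Among the receptors of FGF ligands, Fgfr2 fell by 0.94 on the log2 scale with mOSM (limma, adjusted p = 0.00263), from between 16 and 23 normalized counts in PBS to between 9 and 11. With hlOSM its difference was −0.67 (adjusted p = 0.0223), which did not pass with the block (adjusted p = 0.0660), without PBS replicate 1 or 2 (adjusted p = 0.0771 and 0.0912) or without hlOSM replicate 2 (adjusted p = 0.0991). Fgfr1 had differences of −0.26 with mOSM and −0.26 with hlOSM (limma, adjusted p = 0.0240 and 0.0206), which did not pass with the block (adjusted p = 0.0590 and 0.0504). The difference with mOSM also failed to pass without PBS replicate 2 or 3 or mOSM replicate 1 or 2 (adjusted p = 0.0694, 0.0777, 0.0566 and 0.0610), and that with hlOSM without PBS replicate 2 or 3 or hlOSM replicate 2 or 3 (adjusted p = 0.0606, 0.0655, 0.0730 and 0.0788). Sdc4, a heparan sulfate proteoglycan that binds FGF2, rose by 0.49 and 0.47 with mOSM and hlOSM (limma, adjusted p = 9.88e-06 and 1.21e-05). Fgfr4, the receptor linked to the cardiac actions of FGF23, lay between 0 and 3 normalized counts in every library and was not tested. The listed co-receptors Kl and Klb were not tested either.

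**Figure D3:**
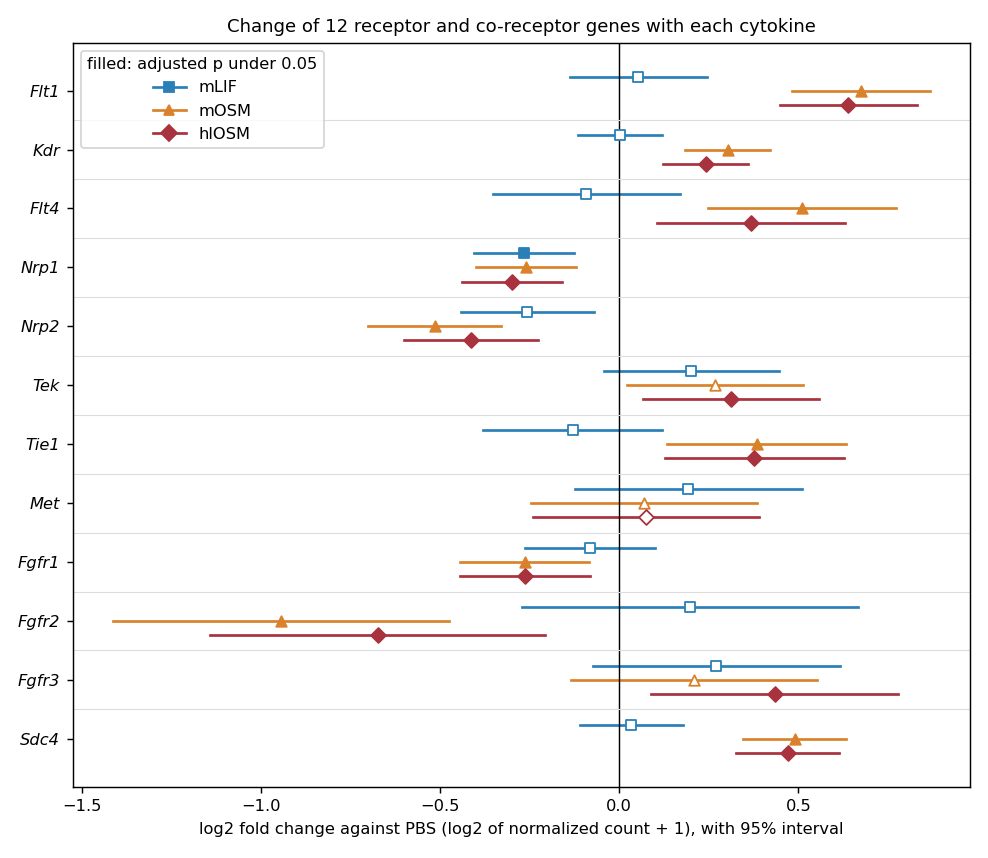
Log2 differences from PBS (horizontal axis) of 12 receptors and co-receptors with mLIF, mOSM and hlOSM, with 95% intervals from limma; filled points have an adjusted p under 0.05. Flt1 lies at 0.67 and Fgfr2 at −0.94 with mOSM.

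Endothelial markers moved with Flt1 and Kdr. The 10 markers, led by Cdh5, summed to 883, 890 and 838 normalized counts in PBS, 895, 842 and 880 after mLIF, 1078, 1201 and 1290 after mOSM, and 1172, 1088 and 1205 after hlOSM. The mOSM and hlOSM libraries lay above the others, which overlapped. Of the 10 markers, 0 rose and 1 fell with mLIF, 8 rose with mOSM and 6 rose with hlOSM (limma). The fall with mLIF was not called without mLIF replicate 3, and without PBS replicate 1 there was 1 fall with hlOSM. The 9 leukocyte markers, led by Lyz2, summed to 313, 334 and 340 in PBS, 313, 292 and 332 after mLIF, 357, 398 and 371 after mOSM, and 370, 333 and 402 after hlOSM. Of the 6 tested, 1 rose with mLIF, 1 rose and 1 fell with mOSM (0 fell with the block), and 1 rose and 1 fell with hlOSM. The shares of all tested genes, for endothelial and leukocyte markers, are those given for the receptors. The rise of the leukocyte marker with mLIF was not called without PBS replicate 3 or mLIF replicate 1 or 3, and 1 marker fell with mLIF without PBS replicate 1 or mOSM replicate 1. The fall with mOSM was not called without PBS replicate 3 or mOSM replicate 2 or 3, nor that with hlOSM without PBS replicate 2 or 3 or hlOSM replicate 2 or 3. C1qa, C1qb and Cd14 stayed at or below 9 normalized counts in every library. The part of either cell type in the results on the receptors was not tested.

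Of 13 other ligands of the VEGF, PDGF and angiopoietin families, 8 were tested. With mLIF 1 rose, with mOSM 3 rose and 3 fell, and with hlOSM 3 rose and 4 fell (limma). Among all tested genes, mLIF raised 5.47% and lowered 4.44%. The shares were 15.4% and 15.8% for mOSM, and 18.2% and 19.8% for hlOSM. The block gave the same counts. Without PBS replicate 3 the falls numbered 1 with mOSM and 2 with hlOSM, and without PBS replicate 2 or hlOSM replicate 3 there was 1 fall with mLIF. Pdgfc and Angptl2 were the falls lost with mOSM without PBS replicate 3 (adjusted p = 0.0704 and 0.198). The median log2 differences of the 8 genes were −0.07, −0.02 and −0.19. Angptl4, an inhibitor of lipoprotein lipase that acts on vessels as well, had 158, 113 and 68 normalized counts in PBS, 234, 225 and 303 after mLIF, 451, 568 and 620 after mOSM, and 489, 562 and 715 after hlOSM. Its conditions did not overlap except mOSM with hlOSM, and replicate 3 was the lowest PBS library and the highest of each cytokine, as in Fgf2. Angptl4 rose by a log2 difference of 1.23, 2.33 and 2.43 (limma, adjusted p = 0.000376, 4.71e-09 and 1.58e-09). Pdgfb, which recruits pericytes, rose by 0.78 with mOSM and 0.65 with hlOSM (limma, adjusted p = 5.20e-05 and 0.000342), and Pdgfd fell by 0.62 and 0.75 (adjusted p = 6.42e-05 and 4.66e-06). Pdgfa, the most abundant gene of the list by its mean over the 12 libraries, rose by 0.28 and 0.27 (limma, adjusted p = 0.00290 and 0.00336). With mOSM and hlOSM the mean normalized counts of Angptl4 (546 and 589), not corrected for length, were above those of Pdgfa (455 and 451).

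Of 20 other FGF ligands, 12 were in the table and 7 were tested. None was called with mLIF by limma, while 1 rose and 3 fell with mOSM (0 and 2 with the block), and 1 rose and 2 fell with hlOSM. Over all tested genes, 5.47% were raised by mLIF and 4.44% lowered. For mOSM these shares were 15.4% and 15.8%, and for hlOSM they were 18.2% and 19.8%. With mOSM the rise was not called without mOSM replicate 1 or 2, and the falls numbered 1 without PBS replicate 3. The rise with hlOSM was not called without hlOSM replicate 1. The median log2 differences of the 7 genes were −0.03, −0.18 and −0.19. Fgf7, a mitogen of epithelial cells made by mesenchymal cells, had 42, 45 and 43 normalized counts in PBS, 29, 42 and 36 after mLIF, 17, 9 and 15 after mOSM, and 12, 16 and 13 after hlOSM. The mOSM and hlOSM libraries lay below all others. It fell by 1.64 on the log2 scale with mOSM (limma, adjusted p = 3.75e-06), and the fall with hlOSM passed as well (adjusted p = 3.69e-06). Fgf1, the most abundant gene of this list, had differences of −0.03, −0.01 and −0.03 and was not called (limma, adjusted p = 0.831, 0.914 and 0.715).

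Of 11 genes for other HIF subunits and for the enzymes and proteins that control them, 9 were tested. None rose, and 1 fell with mLIF (0 with the block), 2 with mOSM and 3 with hlOSM (2 with the block) by limma, where 4.44%, 15.8% and 19.8% of all tested genes fell. The shares of all tested genes that rose were 5.47%, 15.4% and 18.2%. The fall with mLIF, that of Cited2 (−0.21, adjusted p = 0.0476), was not called without PBS replicate 1 or 3, mLIF replicate 1, 2 or 3, mOSM replicate 1, or hlOSM replicate 1 or 2 (adjusted p from 0.0519 to 0.178), and without PBS replicate 2 the falls with mLIF numbered 2. Epas1, which encodes HIF2A and is the most abundant gene of this list, was the fall lost with the block. Its log2 difference with hlOSM was −0.18 (limma, adjusted p = 0.0376, and 0.0560 with the block). It did not pass without PBS replicate 1 or 3 (adjusted p = 0.0547 and 0.281, the latter at −0.09) or without hlOSM replicate 1, 2 or 3 (adjusted p = 0.0732, 0.0826 and 0.0657). Egln1, which encodes the main oxygen-sensing prolyl hydroxylase, fell by 0.21 on the log2 scale with mOSM (limma, adjusted p = 0.00868) and by 0.27 with hlOSM (adjusted p = 0.000836). The Egln1 difference with mOSM was −0.15 without PBS replicate 3 and did not pass (adjusted p = 0.0717). Cited2, which competes with HIF for a co-activator, fell by 0.24 with mOSM and by 0.43 with hlOSM (limma, adjusted p = 0.0102 and 2.62e-05).

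Of 28 textbook targets of HIF, 26 were tested, and limma called 5 higher and 1 lower after mLIF, 11 higher and 3 lower after mOSM, and 10 higher and 6 lower after hlOSM. With the block these were 2 and 0, 10 and 3, and 10 and 4. Of all tested genes, 5.47% were higher and 4.44% lower after mLIF, 15.4% and 15.8% after mOSM, and 18.2% and 19.8% after hlOSM. After mLIF the higher targets numbered 2 without PBS replicate 2, mLIF replicate 1 or 2, or hlOSM replicate 2, and 1 without PBS replicate 3 or mLIF replicate 3. The lower target after mLIF was not called without PBS replicate 2 or 3 or mLIF replicate 1 or 3. The lower targets numbered 5 after mOSM without PBS replicate 1, and 3 after hlOSM without PBS replicate 3. The median log2 differences of the 26 genes, −0.02, 0.07 and 0.03, were close to the median of all tested genes. Slc16a3, which exports lactate, had 6, 6 and 8 normalized counts in PBS, 4, 7 and 6 after mLIF, 45, 34 and 29 after mOSM, and 32, 23 and 26 after hlOSM. PBS and mLIF libraries overlapped at low values, and all mOSM and hlOSM libraries lay above them, with rises of 2.26 and 1.87 on the log2 scale (limma, adjusted p = 3.79e-07 and 3.85e-06). Slc16a3 passed the filter only through those libraries, so that it had to differ to be tested. Pfkfb3, an activator of glycolysis, rose by 0.88 and 1.04 (limma, adjusted p = 6.48e-08 and 3.99e-09), and the stress-response gene Ndrg1 rose by 0.85 (mLIF), 1.57 (mOSM) and 1.71 (hlOSM) (adjusted p = 0.00325, 2.99e-07 and 6.59e-08). Adm, which encodes the vasodilator adrenomedullin, fell, by 1.17 with mOSM and by 1.28 with hlOSM (limma, adjusted p = 1.54e-05 and 3.35e-06). Hk2, the most abundant gene of the list, rose by 0.24 and 0.26 (limma, adjusted p = 0.00160 and 0.000581).

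Genes with values most like those of the called members were found by Pearson's r of log2 values over the 12 libraries, among 8494 protein-coding genes with a mean of at least 50 normalized counts. These are descriptions, since the points share libraries and conditions. Vegfa was most like Pm20d2 (r = 0.978), Pdzrn3 (0.967) and Rhob (0.965), and Pgf most like Cgnl1 (0.980), followed by Maf and Ephx1. Angpt1 was most like Sesn1 (r = 0.986), Slc2a4 (0.985) and Lrtm1 (0.983). Fgf2 was most like Cnksr1 (r = 0.996), Cd24a (0.994) and Osmr (0.990), the last of which encodes the receptor of OSM. Fgf23 was most like Npdc1 (r = 0.983), Lrg1 (0.979) and Dclre1b (0.978), and Hif1a most like Tgfbi (0.983), Mapkapk2 (0.982) and Rras2 (0.981).

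Promoter windows from RefSeq (build GRCm38.p6), from 250 bases before to 50 bases after a transcript start, were available for 8 of the 9 genes, with 11 windows, and Angpt1 is named only. The letters TTCNNNGAA, the core that STAT factors bind, and the hypoxia response cores ACGTG and GCGTG were searched on both strands. TTCNNNGAA was in a window of 1 gene, Fgf23, and in 8.30% of all 32851 windows. ACGTG was in windows of 2 genes, Vegfa and Hif1a, and in 19.6% of all windows, and GCGTG was in windows of 6 genes and in 32.4% of all. Counted as windows, TTCNNNGAA, ACGTG and GCGTG were in 1, 2 and 6 of the 11. The 250 bases before the start are printed for Fgf23, the gene with the largest rise, for Hif1a, and for the first window of Vegfa, which holds none of these letters. Capitals mark the matches, and in Hif1a the run CACGTG holds ACGTG on both strands, so that these matches overlap. The Hif1a window lies inside the span the table gives for the gene, and in Fgf23 the match to TTCNNNGAA starts at base 127072801 and that to GCGTG at base 127072737. A match is a description, not a site or a cause. The windows are chr6:127072652-127072901 on the plus strand for Fgf23, chr12:73907617-73907866 on the plus strand for Hif1a and chr17:46032378-46032627 on the minus strand for Vegfa, each printed 5′ to 3′.
Fgf23: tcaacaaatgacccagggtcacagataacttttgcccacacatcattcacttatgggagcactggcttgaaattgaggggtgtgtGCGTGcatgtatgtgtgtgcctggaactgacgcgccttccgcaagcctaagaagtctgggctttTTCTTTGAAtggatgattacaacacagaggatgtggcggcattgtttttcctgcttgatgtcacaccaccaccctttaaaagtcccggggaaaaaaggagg
Hif1a: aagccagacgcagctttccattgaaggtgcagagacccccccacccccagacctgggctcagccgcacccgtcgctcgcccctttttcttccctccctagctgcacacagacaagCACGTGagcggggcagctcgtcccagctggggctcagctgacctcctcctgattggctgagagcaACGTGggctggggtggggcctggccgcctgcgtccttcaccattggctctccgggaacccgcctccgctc
Vegfa: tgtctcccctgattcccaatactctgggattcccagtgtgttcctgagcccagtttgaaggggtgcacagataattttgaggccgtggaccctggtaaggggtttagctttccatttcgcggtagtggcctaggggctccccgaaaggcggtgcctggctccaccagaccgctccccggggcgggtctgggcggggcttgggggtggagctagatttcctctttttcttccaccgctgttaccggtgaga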

How the data were processed

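The authors aligned the reads to mm10 with STAR 2.7.7a, counted exonic reads of single genes with featureCounts 1.6.5, normalized the counts and rounded them. The deposited values are therefore scores (normalized counts), not read counts, and the normalization method is not named. The paper states reads only as an average, not for each library, so that no counting error was computed. Members were matched by symbol. limma 3.58.1 in R 4.3.3 (lmFit, eBayes with trend) was fitted to log2(normalized count + 1) of all 12 libraries, with genes of at least 10 in at least 3 libraries. Tables and plots used Python 3.11.15, numpy 2.4.6, pandas 2.3.3 and matplotlib 3.10.9. Members and lists were chosen with earlier results of these data known. Named list genes were drawn from fixed receptors, each list's most abundant gene and up to 6 called genes by the F test, and not all of these are described. The most abundant gene is that with the highest mean normalized count, not corrected for length. A further gene list is not reported here. Alternatives were pseudocounts of 0.1 and 5, quantile normalization, trimmed-mean scaling, a minimum of 50 or none, fitting the compared conditions alone, blocking on replicate number, a threshold of 0.01, and leaving out each library in turn.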

Additional observations from a re-analysis of the deposited data

How the results depend on the processing

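For the 9 genes, 63 differences were recomputed under each alternative, giving 1293 values. Of these, 1280 kept the call or its absence, 6 lost the call and 7 gained it. No called difference changed sign, while some that were not called did. The total of called genes in a comparison stayed within 1.5 times that reported except in the interaction, where leaving out single libraries gave from 0 to 2 called genes; the cause was not tested. By direction, the 2 falls with mLIF became 1 without PBS replicate 3 or mLIF replicate 2 or 3 and at an adjusted p under 0.01. At an adjusted p under 0.01 the calls of Angpt1 with mLIF and of Pgf with mOSM were lost. With a filter at 50, Vegfc, Pgf and Hgf were not tested and have no value, and the 2 genes lower with hlOSM than with mLIF became 1. Where leaving out a library left 2 in a condition, the fit pooled the spread over all conditions.

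The deposited values hold almost no difference between replicate numbers. Deviations of libraries with the same number correlated between −0.478 and −0.0497 over 18 pairs, and those with different numbers between −0.0855 and 0.444. Libraries with the same number were thus not alike in the deposited values, which does not show whether they were paired in the experiment. The replicate number held 4.38% of the variance within conditions (8670 genes), where 25% is the share without an effect. If such an effect was taken out before deposit, which was not tested, a fit without the block counts more residual degrees of freedom than remain and its p-values would be somewhat small. With the block the calls of the 9 genes were the same, with adjusted p = 0.0428 for Pgf with mOSM and 0.0435 for Angpt1 with mLIF (limma). Over all genes, the block gave 784 calls in place of 1307 with mLIF, 2 in place of 14 for hlOSM against mOSM, and 14 in place of 22 for the interaction. Leaving out single libraries gave between 502 (without mLIF replicate 3) and 1625 calls with mLIF, with 626 without PBS replicate 3, and 830 and 856 without mLIF replicates 1 and 2. Without PBS replicate 3, the 721 rises and 586 falls with mLIF became 427 and 199, so that the share of falls was much lower there. For hlOSM against mOSM, leaving out single libraries gave between 1 and 17 calls, and for the interaction between 5 (without mLIF replicate 3) and 154 (without hlOSM replicate 3).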

Other observations

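Of 23 other secreted growth factors and vasoactive peptides, 20 were tested. By limma, mLIF raised 3 and lowered 2, mOSM raised 7 and lowered 5, and hlOSM raised 6 and lowered 5. The shares of all tested genes were 5.47% and 4.44%, 15.4% and 15.8%, and 18.2% and 19.8%. A fit that blocks on replicate number gave 0 and 2, 6 and 5, and 4 and 5. The number raised by mLIF was 1 without PBS replicate 2, and 0 without PBS replicate 3 or mLIF replicate 2 or 3. Ccn2, a matricellular protein that binds VEGFA, had 714, 742 and 805 normalized counts in PBS, 719, 656 and 620 after mLIF, 401, 465 and 481 after mOSM, and 458, 411 and 441 after hlOSM. The mOSM and hlOSM libraries lay below all others, and Ccn2 fell by 0.75 and 0.79 on the log2 scale (limma, adjusted p = 4.30e-08 and 1.44e-08). Igf1, the insulin-like growth factor, fell by 0.85 with mOSM and by 1.16 with hlOSM (limma, adjusted p = 0.000398 and 8.22e-06). Gdf15, the most abundant gene of the list, had differences of 0.01, 0.01 and 0.00 and was not called (limma, adjusted p = 0.980, 0.958 and 0.983).

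Apln, which encodes the vasodilator and angiogenic peptide apelin, had 51, 65 and 57 normalized counts in PBS, 30, 37 and 32 after mLIF, 78, 72 and 90 after mOSM, and 79, 52 and 62 after hlOSM. The mLIF libraries lay below and the mOSM libraries above all PBS libraries, while hlOSM overlapped PBS. Apln fell by 0.79 on the log2 scale with mLIF (limma, adjusted p = 0.00192) and was 1.25 higher with mOSM than with mLIF (adjusted p = 2.98e-06). The difference of 0.47 between mOSM and PBS passed (limma, adjusted p = 0.0198), but not without PBS replicate 1 (0.38, adjusted p = 0.0873) or mOSM replicate 3 (0.38, adjusted p = 0.0890).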
